A study of Mus musculus with 40 samples.

Results

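Brown fat was compared with gastrocnemius muscle in the total small RNA of each tissue, called the input because no pull-down had been made. The comparison takes 5 brown fat input libraries and 5 muscle input libraries, 10 of the 40 libraries of the series, by their titles and tissue labels. It covers all 1894 mature miRNA entries of the deposited table, of which 934 had a count in these 10 libraries and 364 had enough counts to be tested. The series was made to label the miRNAs of brown fat and to look for them in other tissues.

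Every mouse of both groups was a male of 8 to 12 weeks on standard chow, from a cross named UCP1;UPRT. The cross joins Tg(Ucp1-cre)1Evdr/J, a Cre recombinase driven by the Ucp1 promoter, with Tg(CAG-GFP,-Uprt)985Cdoe/J. The second transgene gives, after Cre has acted, UPRT, an enzyme that attaches the base 4-thiouracil to ribose phosphate so that RNA can take it up. All mice had 4-thiouracil at 50 mg/kg into the peritoneum 4 times at intervals of 48 h. Neither group is untreated or wild type, and the labels give no genotype of single mice. Brown fat came from mice 2, 4, 6, 7 and 8 (libraries 1 to 5) and muscle from mice 1, 2, 3, 8 and 9 (libraries 1 to 5). Mice 2 and 8 thus gave both tissues and the 10 libraries come from 8 mice. All 10 libraries were in sequencing pool 1.

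A miRNA is a short RNA that guides Argonaute proteins to messenger RNAs, mainly by pairing through its seed, the bases from position 2 to 8. Brown adipocytes burn fuel to make heat through the uncoupling protein UCP1. They arise in the embryo from progenitors that express Myf5, a gene also used by the precursors of skeletal muscle, and the factor PRDM16 favours the brown fat fate over the muscle fate. Several miRNAs act at this branch. The miR-193b and miR-365 cluster promotes brown adipocyte differentiation, while miR-133, which is made in muscle together with miR-1 and miR-206, represses Prdm16.

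The mature sequences of the miRNAs with the largest differences that RefSeq gives are shown because their seeds define which messages they can recognise. They come from the RefSeq table for GRCm38.p6, which matched 319 of the 364 tested entries. Capitals mark the seed. The first group was higher in brown fat.
miR-203-5p: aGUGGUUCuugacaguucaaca
miR-203-3p: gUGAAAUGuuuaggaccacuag
miR-182-5p: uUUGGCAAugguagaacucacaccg
miR-183-5p: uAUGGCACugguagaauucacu
miR-455-3p: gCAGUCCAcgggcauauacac
miR-455-5p: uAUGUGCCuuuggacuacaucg
miR-708-5p: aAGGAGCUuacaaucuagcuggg
miR-193b-3p: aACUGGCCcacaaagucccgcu
The second group was lower in brown fat.
miR-196a-5p: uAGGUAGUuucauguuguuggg
miR-149-5p: uCUGGCUCcgugucuucacuccc
miR-133b-3p: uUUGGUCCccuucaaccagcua
miR-206-3p: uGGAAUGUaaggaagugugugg

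Each of the 8 sequences of the first group has a seed of its own. Among the other tested entries with a sequence, miR-193a-3p shares the seed of miR-193b-3p and was also higher in brown fat, and miR-28a-5p shares that of miR-708-5p and was not called. In the second group, miR-196b-5p shares the seed of miR-196a-5p and was also lower. It is general knowledge that miR-206 has the seed of miR-1 and that miR-133b has that of miR-133a.

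The loci are on GRCm38 with GENCODE vM21 genes. Both arms of miR-203 come from chr12:112130889-112130948 on the plus strand, outside other annotated genes. miR-182-5p (chr6:30165962-30165986) and miR-183-5p (chr6:30169711-30169732) lie on the minus strand of 1 cluster with miR-96, also outside other genes. Both arms of miR-455 (chr4:63256867-63256924, plus strand) lie in an intron of the collagen gene Col27a1. miR-708-5p (chr7:96249450-96249472, plus strand) lies in an intron of Tenm4. miR-193b-3p (chr16:13449570-13449591, plus strand) overlaps an intron of the antisense gene Gm15738 on the opposite strand. miR-196a-5p has 2 copies on plus strands, chr11:96265187-96265208 between Hox genes and chr15:102973365-102973386 in an intron of Hoxc5. miR-149-5p (chr1:92850381-92850403, plus strand) lies in an intron of Gpc1. miR-206-3p (chr1:20679055-20679076) and miR-133b-3p (chr1:20682834-20682855) lie on the plus strand in exons of the same lincRNA, Gm28653.

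The depth differed between the tissues, with 968886 to 2121912 counts in the brown fat libraries and 3750389 to 4726588 in the muscle libraries. More entries had a count in brown fat (640 to 687) than in muscle (563 to 620). No molecular identifiers marked the molecules before PCR, and intervals given here cover counting error only. In whole tissue, fewer cells of a type and less RNA per cell cannot be told apart.

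The miRNA pool of muscle was dominated by 1 miRNA and that of brown fat was not. miR-1a-3p, which promotes muscle differentiation, took 59.8% to 63.38% of the muscle counts. The entry miR-1b-5p, which shares its reads, took a further 19.93% to 21.13%. In brown fat miR-1a-3p took 27.99%, 6.398%, 16.94%, 11.77% and 9.066% in libraries 1 to 5, so the tissues did not overlap. In the same brown fat libraries miR-1b-5p took a further 9.332%, 2.133%, 5.646%, 3.925% and 3.022%. The most abundant single entry was miR-1a-3p in brown fat libraries 1 and 3. In brown fat libraries 2, 4 and 5 it was miR-378a-3p, which is made from an intron of the mitochondrial regulator Ppargc1b. Counted together, miR-1a-3p and miR-1b-5p stood above miR-378a-3p in brown fat libraries 4 and 5 as well, but not in library 2. Reaching 50% of the counts took 4 to 9 entries in brown fat and 1 entry in muscle, with entries that share reads counted apart.

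This difference in makeup decides the scale on which other miRNAs are compared. The tests used the trimmed mean of M values (TMM), which sets the scale so that most miRNAs do not differ. Its factors ran from 1.603 to 2.717 in brown fat and from 0.383 to 0.528 in muscle, and the median log2 fold change was then 0.14. With total count as the scale the median was 2.36, a shift of 2.22 for the same counts. Levels are given as TMM-scaled CPM (counts in each 1000000), which need not sum to the same total in each library, and fold changes as log2 of brown fat over muscle.

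Of the 364 entries 194 (53.3%) differed between the tissues at an adjusted p under 0.05 (edgeR quasi-likelihood test, Benjamini-Hochberg). A total of 107 (29.4%) were higher in brown fat and 87 (23.9%) were lower. On the total count scale 329 (90.4%) were higher and 10 (2.75%) lower. All 107 higher calls stood on both scales. Total count adds about 2.22 to every log2 fold change, so this agreement was largely fixed in advance. Of the 87 lower calls 10 stood on both scales, and 53 (14.6% of the tested) were called higher in brown fat with total count. A miRNA called higher was thus higher on either scale, while a lower call is relative to the bulk of miRNAs unless both scales are named.

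**Figure D1:**
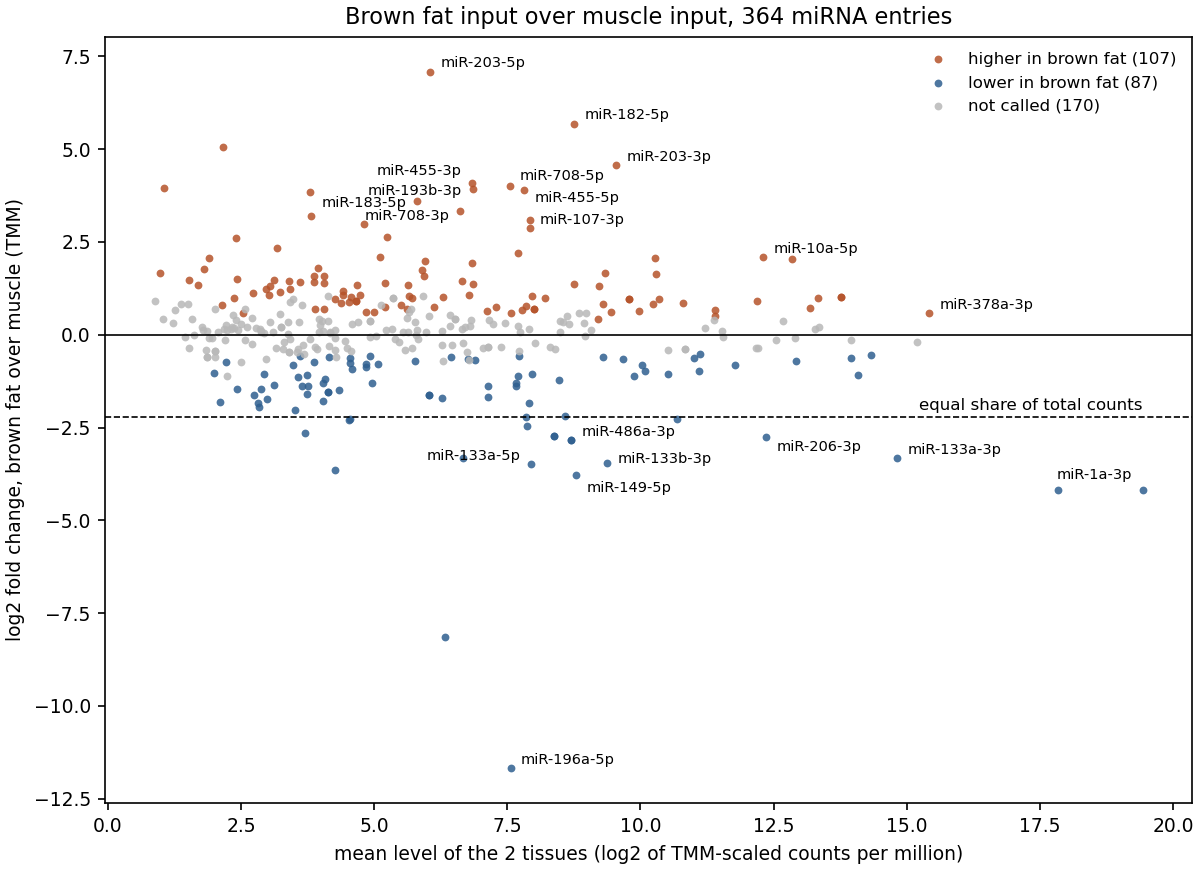
Log2 fold change of brown fat over muscle (TMM, vertical axis) against the mean level of the tissues (log2 of TMM-scaled CPM, horizontal axis), 1 point for each of 364 entries, orange for 107 higher and blue for 87 lower in brown fat. The dashed line lies 2.22 below 0 and marks an equal share of total counts; the muscle miRNAs at the right lie below it, and the lowest point, miR-196a-5p, is a fitted value for a miRNA with 1 count in brown fat.

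The brown adipocyte list holds miRNAs known to mark or promote these cells. It was chosen with earlier results of these data known and holds several of the largest higher calls, so its counts are a description. Of 20 tested members 14 (70%) were higher in brown fat and 2 (10%) lower, against 29.4% and 23.9% of all tested. The median log2 fold change was 2.13 against 0.14 over all tested. The next paragraphs give most higher members of the list by cluster. The rest were miR-129-5p (1.39), miR-193a-5p (1.06) and miR-26b-5p (0.65). The members not called were miR-30b-5p at 0.50, miR-378a-5p at 0.34, miR-30c-5p at 0.16 and miR-328-3p at -0.03. The 2 lower members were miR-365-2-5p (-0.74) and miR-26a-5p (-0.63). On the total count scale all 20 were higher, against 90.4% of all tested. Without brown fat libraries 1 and 3, which held the most miR-1a-3p, 13 were higher and 1 lower. Over all other alternatives the number of lower members ran from 0 to 2, and the call of miR-26a-5p was lost without a filter (adjusted p = 0.092) and without brown fat library 4 (adjusted p = 0.0558).

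The miR-193b and miR-365 cluster promotes brown adipocyte differentiation. miR-193b-3p stood at 140.3, 111.6, 199.2, 157.3 and 472.7 CPM in brown fat libraries 1 to 5, against 12.12 to 15.84 CPM in muscle. Every brown fat library was above every muscle library, and brown fat library 5 stood far above the other 4. The log2 fold change was 3.92 (SE 0.39, adjusted p = 1.73e-06, edgeR). Its partner miR-365-3p had 395.4, 238.1, 260.2, 280.3 and 959.8 CPM in brown fat and 42.52 to 84.93 CPM in muscle, again with library 5 of brown fat highest (2.87, SE 0.41, adjusted p = 5.42e-05). The related miR-193a-3p was also higher (2.99, SE 0.55), but brown fat library 1 at 15.59 CPM fell just below muscle library 1 at 15.84 CPM, so the tissues overlapped.

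The miR-183, miR-96 and miR-182 cluster is best known from sensory cells and is also listed with brown fat. miR-182-5p stood at 983.2, 411.6, 771.6, 974.9 and 1091 CPM in brown fat and at 8.813 to 23.34 CPM in muscle. The fold change was 5.69 (SE 0.34, adjusted p = 1.15e-08). miR-183-5p averaged 102.7 ± 37.1 CPM in brown fat and 8.45 ± 3.21 CPM in muscle (SD, n = 5 each; 3.61, SE 0.33). miR-96-5p averaged 25.9 ± 14.7 CPM and 1.75 ± 0.878 CPM (3.86, SE 0.46). All 3 members of the cluster were higher with no overlap between the tissues.

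miR-203, known as a miRNA of epithelial differentiation and also listed with brown fat, gave the largest higher call. miR-203-5p had 195.3, 78.19, 136.2, 124.9 and 125.6 CPM in brown fat, against 0.5271 to 2.074 CPM in muscle (7.09, SE 0.38, adjusted p = 5.79e-09). The other arm, miR-203-3p, was more abundant, with 1130 to 2071 CPM in brown fat and 48.6 to 82.45 CPM in muscle (4.57, SE 0.25, adjusted p = 5.79e-09). The tissues were far apart for both arms, and the difference of the 5p arm was larger by 2.51.

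miR-455, which promotes brown fat genes, was higher in both arms. miR-455-3p stood at 179.8, 112.5, 232, 298.5 and 252.9 CPM in brown fat and 8.012 to 19.71 CPM in muscle (4.09, SE 0.33, adjusted p = 3.14e-07). miR-455-5p had 228 to 695.7 CPM in brown fat and 17.4 to 33.73 CPM in muscle (3.90, SE 0.34).

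miR-378a-3p was abundant in both tissues. It took 11.26% ± 1.71 of the counts in brown fat and 1.612% ± 0.181 in muscle (SD, n = 5 each). Its levels were 58440, 51780, 59280, 58030 and 35080 CPM in brown fat and 27780 to 40030 CPM in muscle. The fold change was 0.58 (SE 0.20, adjusted p = 0.0243), and brown fat library 5 lay inside the muscle range. The call was lost with RLE scaling (0.51, adjusted p = 0.0504), with all 20 inputs in the fit (0.65, adjusted p = 0.375), without brown fat libraries 1 and 3 (0.39, adjusted p = 0.184), and without muscle library 2 (0.58), 4 (0.46) or 5 (0.47). On the total count scale it was 2.80.

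Large differences were also seen outside the list. miR-708-5p stood at 408.9, 228.4, 283.5, 317.2 and 514.9 CPM in brown fat and at 13.8 to 28 CPM in muscle (4.00, SE 0.28, adjusted p = 6.75e-08). Its partner arm miR-708-3p averaged 178.3 ± 29.6 CPM and 17.8 ± 2.55 CPM (3.32, SE 0.20). miR-107-3p, which acts on insulin signalling, averaged 433.1 ± 140 CPM in brown fat and 50.7 ± 10.7 CPM in muscle (3.09, SE 0.26). The related miR-103-3p, named after its values were seen, averaged 2005 ± 433 CPM and 477.5 ± 22.9 CPM (2.07, SE 0.18).

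**Figure D2:**
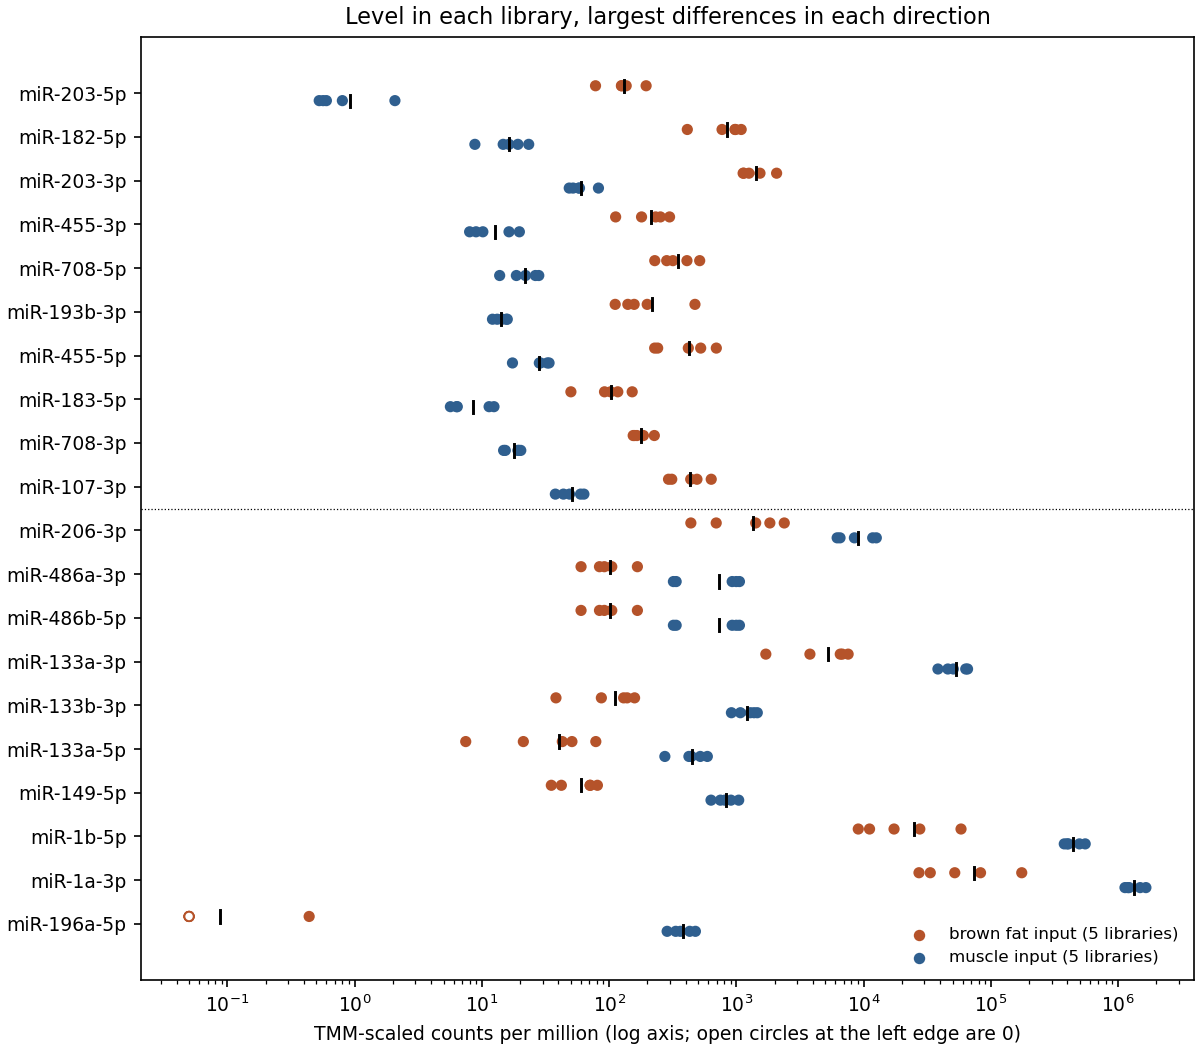
Level of the 10 miRNAs with the largest difference in each direction (TMM-scaled CPM, log axis), 1 point per library, brown fat in orange above muscle in blue, with a black bar at each mean. The upper 10 are higher in brown fat and the lower 10 lower, and the tissues overlap in none of the 20; for miR-196a-5p 4 brown fat libraries are at 0.

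Over all 4 tissues of the series, 9 of the 10 miRNAs with the largest higher calls had their highest mean in brown fat. The other, miR-708-3p, averaged 228 CPM in brown fat, 21.5 CPM in muscle and 393 CPM in hypothalamus on the scale of the 20 inputs. Liver came near brown fat for miR-203-3p (1840 CPM in brown fat, 1370 CPM in liver) and miR-455-5p (540 CPM in brown fat, 387 CPM in liver). miR-183-5p had 60.1 to 203 CPM in brown fat, 55.1 to 123 CPM in liver and 5.17 to 271 CPM in hypothalamus, whose highest library was above every brown fat library. miR-193b-3p had 281 CPM in brown fat and 0 counts in any liver input. All 10 of the largest lower calls had their highest mean in muscle.

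A list of miRNAs known to restrain brown fat does not hold miR-133, which is counted with striated muscle. Of the 8 tested members of this list 3 (37.5%) were higher in brown fat and 0 lower, with a median of 0.46. The share called higher is near the 29.4% of all tested entries. Over all tested 23.9% were lower and the median was 0.14. The higher members were miR-34a-5p (1.74, SE 0.26), which targets the metabolic regulators FGFR1 and SIRT1, miR-93-5p (1.04, SE 0.18) and miR-106b-5p (1.00, SE 0.32). miR-27b-3p and miR-27a-3p, which target Prdm16 and Pparg, had -0.35 (adjusted p = 0.0797) and -0.07. miR-125b-5p had 0.11 and miR-155-5p, which restrains brown adipocyte differentiation, had -0.37 (adjusted p = 0.218). Over the alternatives the number of lower members ran from 0 to 2. Outside this list, miR-133a-3p (-3.32) and miR-133b-3p (-3.47) were lower and are given below.

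The Hox clusters, whose genes set position along the body axis, encode miRNAs that differed in both directions. Of 7 tested members 2 (28.6%) were higher in brown fat and 4 (57.1%) lower, against 29.4% and 23.9% of all tested. The share higher is thus near that of all tested. miR-196a-5p, encoded among the posterior Hox genes, had 0 counts in brown fat libraries 1, 3, 4 and 5 and 1 count in library 2, against 285.7 to 476.5 CPM in muscle. It was 5850-fold lower in brown fat on the TMM scale (exact 95% interval 1050 to 231000, from 1 and 3726 counts) and 1280-fold lower with total count (230 to 50600). miR-196b-5p, with the same seed, had 8 counts in brown fat and 1582 in muscle. Its levels were 0 to 1.471 CPM in brown fat and 145.8 to 189.7 CPM in muscle (-8.14, SE 0.45, adjusted p = 6e-09).

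The miR-10 members of the Hox clusters differed among themselves. miR-10a-5p, encoded near Hoxb4, had 9182, 10120, 7677, 8508 and 5647 CPM in brown fat and 1300 to 2830 CPM in muscle (2.10, SE 0.24, adjusted p = 7.78e-06). Its 3p arm was higher too (1.59, SE 0.22). miR-10b-5p, encoded near Hoxd4, averaged 7346 ± 1871 CPM and 5687 ± 1630 CPM (0.37, SE 0.23, adjusted p = 0.192) and passed without brown fat library 5 (0.56, adjusted p = 0.0348). Its minor arm miR-10b-3p was lower (-0.75, SE 0.21), which reversed to 1.47 with total count. miR-615-3p, from an intron of Hoxc5, had 42.07 to 93.71 CPM in brown fat and 178.3 to 262.9 CPM in muscle (-1.69, SE 0.25), which with total count was 0.57 and not called.

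Of the striated muscle list 7 of 9 tested members (77.8%) were lower in brown fat and 0 higher, against 23.9% and 29.4% of all tested. The median was -3.32. The whole list of 13 entries took 38.69%, 9.05%, 24.38%, 17.15% and 14.41% of counts in brown fat libraries 1 to 5 and 83.11% to 86.5% in muscle. miR-1a-3p had a fold change of -4.17 (SE 0.48, adjusted p = 7.78e-06) and -2.08 with total count. miR-1b-5p, the entry on the opposite strand, shares its reads and gave the same value. Without brown fat libraries 1 and 3 the fold change of miR-1a-3p was -5.23.

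miR-133a-3p, which restrains serum response factor (SRF) and Prdm16, had 6788, 1704, 6553, 3784 and 7555 CPM in brown fat and 38370 to 65550 CPM in muscle. The fold change was -3.32 (SE 0.36, adjusted p = 4.44e-06) and -1.13 with total count. miR-133b-3p averaged 110.4 ± 48.1 CPM and 1222 ± 224 CPM (-3.47, SE 0.33). miR-133a-5p averaged 40.2 ± 27.5 CPM and 450.6 ± 118.9 CPM (-3.48, SE 0.47). No brown fat library reached the muscle range for any of the 3.

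miR-206-3p, a miRNA of skeletal muscle and its precursors, had 1418, 438.8, 1833, 2379 and 694.3 CPM in brown fat and 6195 to 12580 CPM in muscle. It was lower in brown fat (-2.75, SE 0.41, adjusted p = 7.83e-05), but with total count the value was -0.52 with adjusted p = 0.171. miR-208b-3p and miR-499-5p are made from introns of slow muscle myosin genes. miR-208b-3p averaged 13.7 ± 8.46 CPM and 7.56 ± 2.06 CPM (0.87, adjusted p = 0.113), and miR-499-5p 93.8 ± 49.4 CPM and 110.1 ± 48.3 CPM (-0.23, adjusted p = 0.65). Neither was called, and both were higher in brown fat with total count.

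The muscle miRNAs were also set against miR-1a-3p within each library, a ratio that no scaling changes. Per 1000 counts of miR-1a-3p, miR-206-3p had 8.11, 16.1, 22.1, 45.7 and 20.8 counts in brown fat and 5.2 to 7.91 counts in muscle. Every brown fat library was above every muscle library (two-sided exact permutation p = 0.00794, the smallest that 5 against 5 can give, adjusted p = 0.0132 over 5 ratios). miR-499-5p had 0.712 to 2.05 per 1000 in brown fat and 0.0387 to 0.164 in muscle, and miR-208b-3p 0.064 to 0.446 and 0.00304 to 0.00723. Both were apart in every library, with the same exact permutation p and adjusted p.

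The ratios of miR-133 did not pass. miR-133a-3p had 38.8, 62.6, 79, 72.7 and 226 counts per 1000 in brown fat and 23.2 to 57.9 in muscle (exact permutation p = 0.0556, adjusted p = 0.0695). miR-133b-3p averaged 2.05 ± 1.56 and 0.94 ± 0.238 per 1000 (exact permutation p = 0.0794). Brown fat library 1 lay within the muscle range for both. Without brown fat library 1 the exact permutation p was 0.00794 for each, and without muscle library 4 it was 0.0476 for miR-133a-3p. Without brown fat libraries 1 and 3 it was 0.0179 for each, with log2 differences of 1.37 for miR-133a-3p and 1.29 for miR-133b-3p.

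The posterior Hox miRNAs give a second ratio of this kind, chosen after their values were seen and not tested. Per 1000 counts of miR-1a-3p, miR-196a-5p had 0.202 to 0.4 counts in muscle libraries. In brown fat it had 0.0161 in library 2 and 0 in the other 4, from 1 count of miR-196a-5p beside 1173013 counts of miR-1a-3p. In muscle 3726 counts stood beside 12826763. miR-196b-5p had 0 to 0.0323 per 1000 in brown fat and 0.0882 to 0.159 in muscle. The source of miR-1a-3p in brown fat was not tested.

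**Figure D3:**
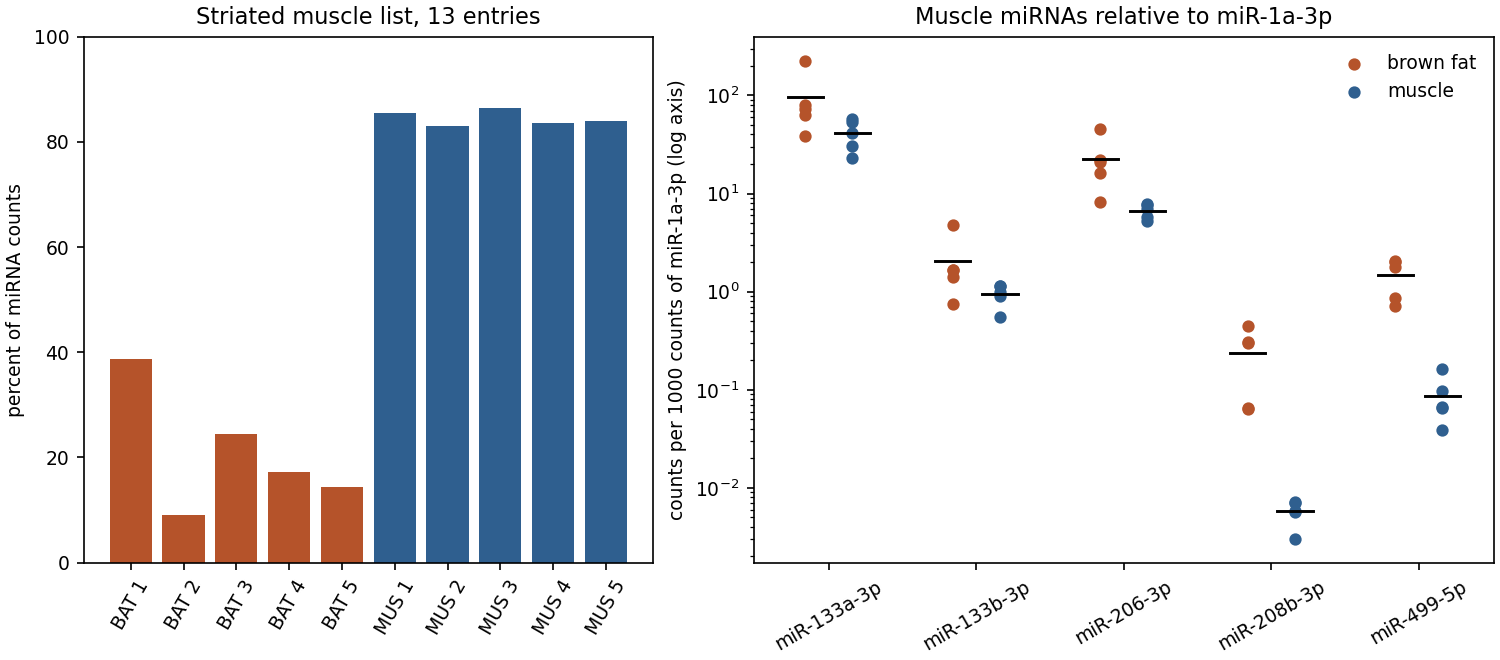
Left, percent of miRNA counts taken by the striated muscle list of 13 entries in each library (BAT, brown fat; MUS, muscle). Right, counts of 5 muscle miRNAs per 1000 counts of miR-1a-3p in the same library (log axis, 1 point per library, black bar at the mean), where the tissues are apart for miR-206-3p, miR-208b-3p and miR-499-5p and overlap for both miR-133 entries.

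Among the other lower calls, miR-149-5p, from an intron of the proteoglycan gene Gpc1, had 70.9, 35.14, 80.9, 70.99 and 42.14 CPM in brown fat and 632 to 1043 CPM in muscle. The fold change was -3.78 (SE 0.27, adjusted p = 6.75e-08) and -1.61 with total count, a call on both scales. The 10 entries lower on both scales were the 2 of miR-1, the 3 of miR-133, both miR-196 entries, miR-149-5p, miR-504-5p (-3.64) and miR-181a-2-3p (-3.31). The last 2 were named after their values were seen.

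The lists of other cell types in these tissues differed in direction. Of the leukocyte list 5 of 9 (55.6%) were higher in brown fat and 1 lower (median 1.00), against 29.4% and 23.9% of all tested. miR-150-5p, of mature lymphocytes, had 278.9 to 381.6 CPM in brown fat and 56.02 to 90.54 CPM in muscle (2.20, SE 0.19, adjusted p = 6.24e-07). miR-146a-5p, a brake on innate immune signalling, averaged 396.1 ± 91.6 CPM and 197.7 ± 39.4 CPM (1.00, SE 0.21). Its paralog miR-146b-5p was lower, at 75.12 to 100.8 CPM and 121.8 to 145.7 CPM (-0.66, SE 0.16), which reversed to 1.56 with total count and was not called without a filter (adjusted p = 0.0775) or with all 20 inputs (adjusted p = 0.186). miR-223-3p of myeloid cells was higher (1.35, SE 0.39). Of the pan-leukocyte miR-142a, the 5p arm was higher (91.3 ± 57.4 CPM in brown fat, 30.3 ± 5.69 CPM in muscle; 1.59, SE 0.37, adjusted p = 0.00227) and the 3p arm was not called (1.00, adjusted p = 0.119). The summed list ran from 807.4 to 1312 CPM in brown fat and from 393.6 to 597.2 CPM in muscle.

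All 4 entries of the endothelial list, which are 2 pairs that share their reads, were higher in brown fat, against 29.4% of all tested. miR-126a-3p, the main miRNA of endothelial cells, had 14160, 23150, 20120, 18370 and 16980 CPM in brown fat and 8435 to 10140 CPM in muscle (1.02, SE 0.17, adjusted p = 0.000176). miR-126a-5p had 724 to 1707 CPM in brown fat and 437.9 to 802.7 CPM in muscle, where the tissues overlapped (0.97, SE 0.25). miR-126b-5p shares the reads of miR-126a-3p and miR-126b-3p those of miR-126a-5p, with the same calls.

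The stromal and smooth muscle list had 0 of 10 higher and 6 (60%) lower (median -0.87), against 29.4% and 23.9% of all tested. With total count all 10 were higher, against 90.4% of all tested. miR-143-3p, of smooth muscle, averaged 34980 ± 6061 CPM and 39840 ± 6971 CPM and was not called (-0.19, adjusted p = 0.419). miR-199a-3p, of fibroblasts, had 1079 to 1790 CPM in brown fat and 2286 to 3439 CPM in muscle (-0.97, SE 0.18, adjusted p = 0.000454), which became 1.24 with total count. miR-199b-3p, which has the same mature sequence, gave the same value. With all 20 inputs in the fit miR-199a-3p was not called (-0.88, adjusted p = 0.163) and 2 members of the list were lower.

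The red blood cell list had 4 of 7 (57.1%) lower in brown fat and 0 higher, against 23.9% and 29.4% of all tested. Its members split. The 4 were the miR-486 entries, which share their reads and are also made in muscle. miR-486a-5p had 55.35 to 142.7 CPM in brown fat and 248.8 to 870.7 CPM in muscle (-2.73, SE 0.39) and was not called with total count (-0.51, adjusted p = 0.149). miR-486b-5p and miR-486a-3p gave -2.84 and also were not called with total count (-0.62, adjusted p = 0.0797). The defining erythroid miRNAs were not called. miR-451a averaged 81.5 ± 74.6 CPM and 39.7 ± 19.5 CPM (1.04, adjusted p = 0.0877), and miR-144-3p 23.5 ± 21.3 CPM and 11.5 ± 7.37 CPM (1.05, adjusted p = 0.139). In brown fat library 5 miR-451a was at 213.3 CPM, the highest of the 10 libraries. In each of 4 alternatives 2 members of the list were higher, namely without brown fat library 1, without libraries 1 and 3, without a filter and with the replicate block. With total count 3 of the 7 were higher, against 90.4% of all tested.

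Of the hepatocyte list 1 of 3 tested members (33.3%) was higher in brown fat and 1 (33.3%) lower, near the 29.4% and 23.9% of all tested. miR-194-5p had 158.3 to 279.2 CPM in brown fat and 92.39 to 170.7 CPM in muscle, with overlap, and was higher (0.75, SE 0.22, adjusted p = 0.0113). miR-192-5p had 423.7 to 633.7 CPM and 234 to 611.6 CPM and was not called (0.59, adjusted p = 0.0514), but passed in 7 alternatives. miR-122-5p, the main miRNA of liver cells, had 55.35 to 100.6 CPM in brown fat and 1183, 125, 137.4, 375 and 81.17 CPM in muscle (-2.23, SE 0.62, adjusted p = 0.00726). Muscle library 1 stood above the rest. Without it the value was -1.17 and still called by edgeR. The call was lost with all 20 inputs (-2.22, adjusted p = 0.142) and with total count (0.03). On the scale of the 20 inputs it had 104 CPM in brown fat, 484 CPM in muscle and 573000 CPM in liver.

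In the neuron and glia list 2 of 11 (18.2%) were higher and 3 (27.3%) lower, near the 29.4% and 23.9% of all tested. The 2 were miR-132-3p (0.96) and miR-338-3p (0.90). The 3 were miR-128-3p, miR-7b-5p (-0.61, and 1.63 with total count) and miR-7a-5p (-0.51, and 1.73 with total count). miR-128-3p, which is also found in muscle, had -2.28 (SE 0.23). With total count it was -0.06 and not called (adjusted p = 0.779, edgeR). Neither miR-7 call held without a filter (adjusted p = 0.111 for miR-7b-5p and 0.214 for miR-7a-5p), with all 20 inputs (0.353 and 0.38) or without brown fat library 4 (0.05 and 0.0746), and that of miR-7a-5p was also lost without brown fat library 3 (0.0552). The defining neuronal miR-124-3p was at 8.238 to 12.9 CPM in brown fat and 10.18 to 19.5 CPM in muscle. How far these cell types bear on the other differences was not tested.

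**Figure D4:**
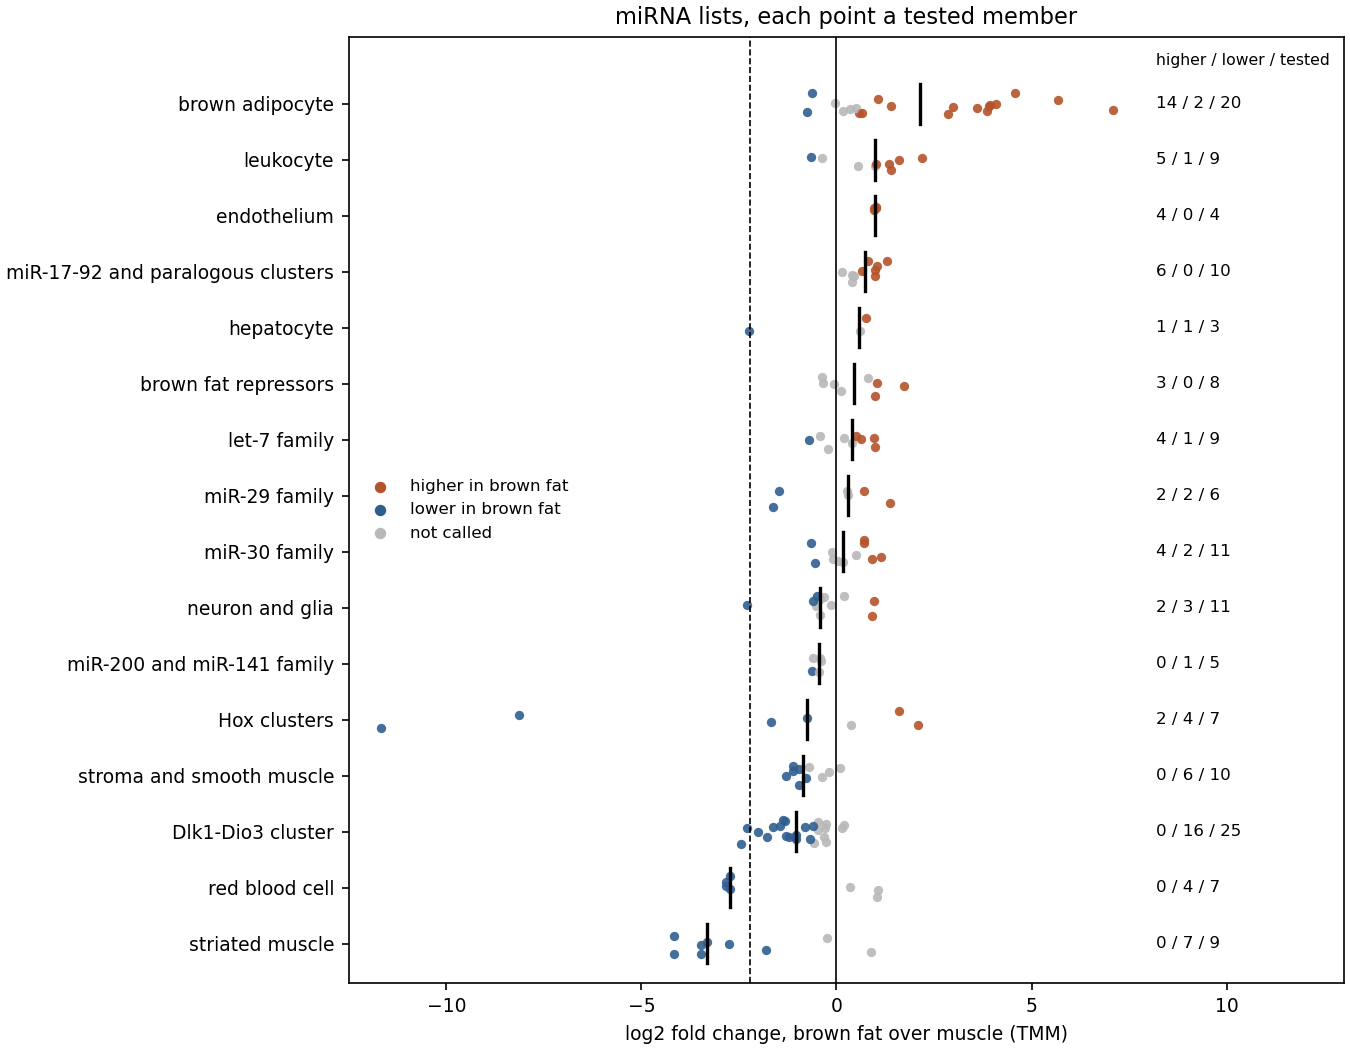
Log2 fold change of brown fat over muscle (TMM, horizontal axis) for each tested member of 16 miRNA lists, ordered by the median (black bar), with orange for higher, blue for lower and grey for not called; the numbers at the right count higher, lower and tested members. The solid line marks 0 and the dashed line an equal share of total counts. The brown adipocyte list is at the top (median 2.13) and the striated muscle list at the bottom (median -3.32).

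The imprinted Dlk1-Dio3 region holds a large group of miRNAs expressed from the maternal chromosome. Of a list of its better known miRNAs, 16 of 25 tested members (64%) were lower in brown fat and 0 higher (median -1.03). Over all tested, 23.9% were lower and 29.4% higher. The list does not hold every tested miRNA of the region, and miR-485-3p, outside it, was higher (0.60). With total count 20 of the 25 were higher and 0 lower, so this direction holds only relative to the bulk of miRNAs. On that scale 90.4% of all tested were higher and 2.75% lower. miR-127-3p, encoded antisense to Rtl1, had 738.2 to 1090 CPM in brown fat and 1284 to 2954 CPM in muscle (-1.06, SE 0.22, adjusted p = 0.00109; 1.19 with total count). miR-379-5p (-1.22, SE 0.29; 1.01 with total count) had 127.6 to 306.6 CPM in brown fat and 303.3 to 769.8 CPM in muscle. miR-411-5p (-1.29, SE 0.19; 0.97 with total count) had 100.6 to 136.6 CPM and 238 to 370.8 CPM. miR-434-3p, named after its values were seen, averaged 71.9 ± 10.96 CPM and 393.5 ± 75.6 CPM (-2.45, SE 0.19; -0.22 and not called with total count). miR-409-3p, miR-323-3p and miR-370-3p had 0.14, 0.20 and -0.28 and were not called.

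The let-7 family, which accumulates in differentiated cells, had 4 of 9 (44.4%) higher and 1 (11.1%) lower (median 0.39), against 29.4% and 23.9% of all tested. let-7g-5p stood at 20240, 15210, 12280, 11980 and 8895 CPM in brown fat and 5885 to 8065 CPM in muscle (0.99, SE 0.21, adjusted p = 0.00142). let-7i-5p had 3422 to 8592 CPM in brown fat and 7196 to 11230 CPM in muscle (-0.70, SE 0.24, adjusted p = 0.0207), which reversed to 1.5 with total count, and was not called without brown fat library 3 (-0.58), 4 (-0.64) or 5 (-0.50), without a filter or with all 20 inputs. let-7f-5p was not called (0.20, adjusted p = 0.53). Brown fat library 1 was the highest of its group for let-7g-5p, let-7f-5p and let-7i-5p, and library 5 the lowest.

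The miR-29 family, which acts on collagen and other matrix messages, had 2 of 6 (33.3%) higher and 2 lower, near the 29.4% and 23.9% of all tested. miR-29a-3p was at 8902 to 17260 CPM in brown fat and 6414 to 7940 CPM in muscle (0.71, SE 0.20, adjusted p = 0.00822), with brown fat library 5 highest. miR-29b-3p averaged 626 ± 291 CPM and 241.4 ± 121.2 CPM (1.38, SE 0.40). The tissues overlapped, as brown fat library 1 at 220.7 CPM lay within the muscle range of 118.2 to 378 CPM. miR-29c-3p was not called (195.5 ± 122.5 CPM and 157.8 ± 42.4 CPM; 0.31, adjusted p = 0.488). The lower members were the minor arms miR-29b-2-5p (-1.63; 0.58 and not called with total count) and miR-29c-5p (-1.48; 0.74 and not called with total count).

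The miR-30 family, which supports adipocyte genes, had 4 of 11 (36.4%) higher and 2 (18.2%) lower with a median of 0.16, near the 29.4%, 23.9% and 0.14 of all tested. miR-30e-5p averaged 6128 ± 1728 CPM in brown fat and 3266 ± 584 CPM in muscle (0.91, SE 0.21), and miR-30a-5p 16880 ± 2261 CPM and 24530 ± 2639 CPM (-0.54, SE 0.16, adjusted p = 0.012; 1.68 with total count). miR-30a-5p was not called without a filter (-0.38) or with all 20 inputs (-0.46). miR-30c-5p, which promotes brown fat genes, was not called at 8877 to 11910 CPM and 7665 to 10700 CPM, nor was miR-30d-5p at 5195 to 8712 CPM and 7340 to 9314 CPM (-0.10).

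The miR-17-92 and related clusters, which favour cell growth, had 6 of 10 (60%) higher and 0 lower (median 0.74), against 29.4% and 23.9% of all tested. Among the 6, miR-93-5p and miR-106b-5p are also counted in the list of miRNAs that restrain brown fat. miR-92a-3p had 660.1 to 1148 CPM in brown fat and 224.3 to 507 CPM in muscle (1.31, SE 0.25, adjusted p = 0.000565), and miR-25-3p 637 to 1028 CPM and 353.3 to 615.6 CPM (0.82, SE 0.20). The epithelial miR-200 family had 0 of 5 higher and 1 (20%) lower, near the 23.9% of all tested, with a summed 57.36 to 93.46 CPM in brown fat and 96.75 to 131.2 CPM in muscle. The 1 call, miR-200b-3p (-0.62, SE 0.19; 1.6 with total count), was lost without a filter (adjusted p = 0.146), with all 20 inputs (adjusted p = 0.688) and without brown fat library 4 (adjusted p = 0.0555). miR-200a-3p (-0.40, adjusted p = 0.0775) and miR-200c-3p (-0.46, adjusted p = 0.125) were not called.

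miRNAs encoded next to each other were compared by cluster. The annotation holds 25 clusters of at least 2 hairpins within 10 kb on 1 strand with tested entries at a single locus, 110 entries in all. In 13 clusters 2 or more entries were called. All calls were higher in brown fat in 9 of these and all lower in 3, and 1 had calls in both directions. For comparison, 29.4% of all tested entries were higher and 23.9% lower. Some of the 9 rest on few calls, such as 2 of 5 entries from miR-17 to miR-20a. The clusters were defined after values were seen, and the counts are a description.

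The cluster from miR-450b to miR-322 on chromosome X, known from muscle differentiation and cell cycle arrest, had all 8 of its entries higher in brown fat (median 1.33). Its most abundant members were miR-322-3p at 149.1 ± 36.4 CPM in brown fat and 70.5 ± 9.84 CPM in muscle (1.08, SE 0.20) and miR-322-5p at 147.3 ± 44.8 CPM and 53.4 ± 14.99 CPM (1.46, SE 0.26). The cluster of miR-99b, let-7e and miR-125a on chromosome 17 had 5 of 6 entries higher (median 0.78). The cluster of miR-206 and miR-133b on chromosome 1 had both entries lower (median -3.11). The 1 mixed cluster was the long one from miR-379 to miR-410 in the Dlk1-Dio3 region, with 11 of 24 entries lower and 1, miR-485-3p (0.60, adjusted p = 0.0469), higher.

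Each hairpin gives a 5p and a 3p arm from 1 transcript, so the arms can be compared. In 83 hairpins with both arms tested and no shared reads, both arms were called in 30, 1 arm in 30 and neither in 23. Both were higher in brown fat in 17 and both lower in 11. In 2 they were called in opposite directions, miR-365 with -0.74 for miR-365-2-5p and 2.87 for miR-365-3p, and miR-29b with -1.63 for miR-29b-2-5p and 1.38 for miR-29b-3p. Both 3p entries have more than 1 hairpin of origin, so these pairs do not come from 1 transcript alone. The same holds for miR-30c-5p, miR-125b-5p, miR-181a-5p and let-7f-5p. Each of these enters the 83 with more than 1 3p arm. miR-365-2-5p had 2.289 to 4.544 CPM in brown fat and 4.006 to 8.297 CPM in muscle. The arms were apart by over 1 on the log2 scale in 20 of the 83, and that difference was not tested. Among them are miR-181a-5p with miR-181a-2-3p (2.49) and miR-125b-5p with miR-125b-1-3p (1.72).

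**Figure D5:**
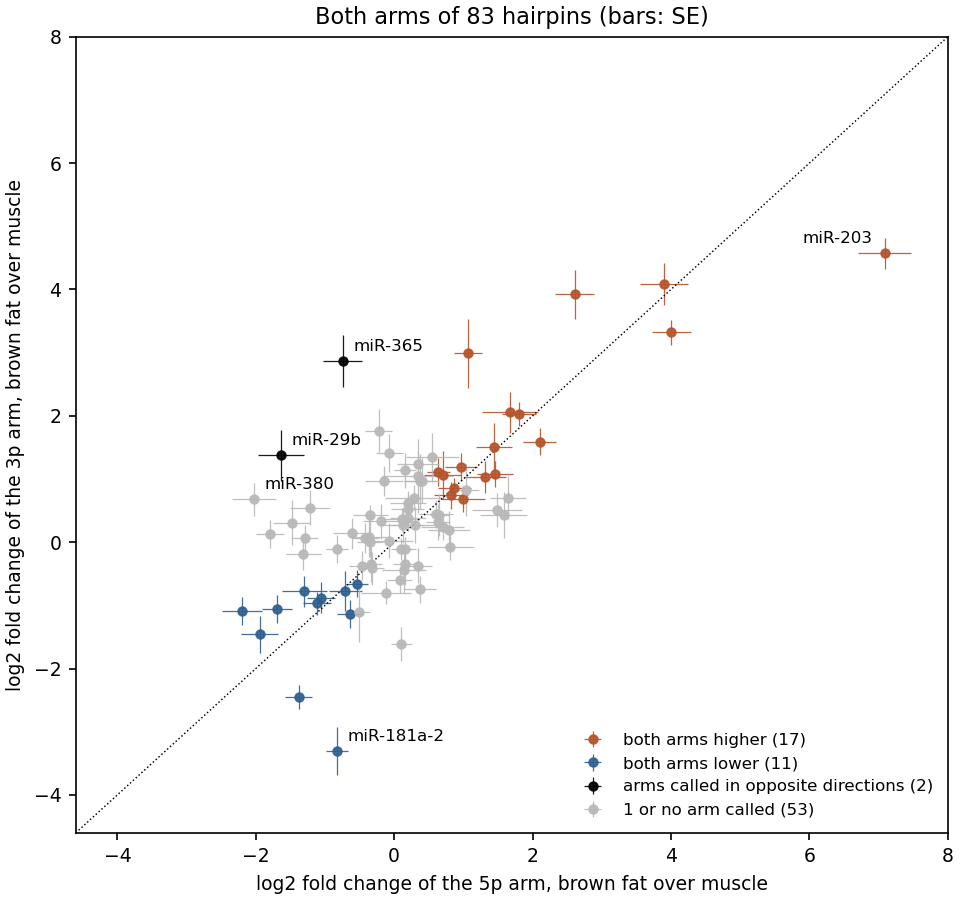
Log2 fold change of the 3p arm (vertical axis) against the 5p arm (horizontal axis), brown fat over muscle on the TMM scale, for 83 hairpins, with bars of 1 SE and a dotted line where the arms are equal. The arms of 17 hairpins are both higher, 11 both lower and 2 called in opposite directions; miR-203 is at the far right below the line.

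The spread between libraries of a tissue was close for brown fat and muscle over all entries, with a median SD of log2 levels of 0.38 and 0.35 (364 entries). Among the 164 entries with at least 100 CPM in brown fat and 10 CPM in muscle by total count, it was 0.37 in brown fat and 0.29 in muscle, and larger in brown fat for 104. Brown fat library 5 was the highest of its group for 109 of the 364 entries and the lowest for 102. Muscle library 4 was the lowest of its group for 113.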

How the data were processed

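Small RNA libraries were made from Trizol-chloroform extracts with a NEBNext small RNA kit, per the labels. The authors deposited 1 table of expected counts (estimated counts with fractions) for 1894 miRNA entries. Per the submitters' processing notes, fastp, STAR, featureCounts and the mm10 build were used; versions, miRNA annotation, strand setting and the handling of reads with several matches were not given in the sources used here. The counts of the 10 libraries were rounded to whole numbers, which moved a total by at most 0.006%, and 0 columns were left without a sample. Libraries of a tissue come from different mice by their labels.

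Entries were filtered with filterByExpr (364 kept) and tested after TMM scaling in R 4.3.3 with edgeR 4.0.16 (quasi-likelihood, two-sided), with Benjamini-Hochberg adjusted p under 0.05, on a design without a block. limma 3.58.1 and DESeq2 1.42.0 served as alternatives, as did other scalings, filters and left-out libraries. SDs and levels are on the TMM scale. Ratios to miR-1a-3p were tested as log2 ratios by exact permutation. The code was tested on simulated data. Entries with at least 400 counts and a correlation of log values over 0.995 across the 40 libraries were taken to share reads.

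The text names, among calls with a mean of at least 100 CPM in the higher tissue, the 10 largest in each direction, the 8 most abundant entries per tissue and the 3 most abundant tested members of each of 16 lists; other list members with values are examples chosen after their values were seen. The comparison, members and lists were chosen with earlier results of these data known.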

Additional observations from a re-analysis of the deposited data

Results flagged for a closer look

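In 60 named miRNAs, counting shared entries once, 1 library stood apart from the other 4 of its tissue in 8 of 120 groups (Dixon's test at the 95% level). Chance alone gives about 1 group in 20.

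In brown fat, library 5 held 472.7 CPM of miR-193b-3p against 199.2 CPM in the next library, and its cluster partner miR-365-3p was also highest there at 959.8 CPM. Library 1 held 5484 CPM of miR-27b-3p against 3956 CPM in the next.

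In muscle, library 1 held 1183 CPM of the hepatocyte miR-122-5p against 375 CPM in the next. Library 2 held 2.074 CPM of miR-203-5p against 0.8012 CPM. Library 3 was low for miR-146a-5p, at 129 CPM against 203.1 CPM in the next, and high for miR-30d-5p, at 9314 CPM against 7852 CPM. Library 5 was high for miR-200a-3p, at 64.83 CPM against 53.19 CPM, and for miR-200c-3p, at 21.08 CPM against 12.42 CPM. Without the library named, each of these miRNAs kept its call or lack of one, apart from miR-27b-3p, which was called lower in brown fat without brown fat library 1 (-0.51, adjusted p = 0.00907, edgeR).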

How the results depend on the processing

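Of miRNAs higher in brown fat input and miRNAs lower in brown fat input, 107 and 87 were called. Scaling by total count gave 329 and 10. Testing all 934 entries with no filter on low counts gave 171 and 111. They ran from 91 to 103 and from 84 to 99 with limma-voom, DESeq2, RLE, the striated muscle list left out of the scaling, or only entries over 10 CPM. With all 20 inputs they were 101 and 77, with shared entries once 101 and 82, and without brown fat libraries 1 and 3 108 and 101. Leaving out 1 library gave 96 to 119 and 82 to 103. Apart from total count, with 53, no alternative called any of the 194 in the opposite direction; of those retested, 154 of 185 kept their call with all 20 inputs, 172 without a filter, 173 without brown fat libraries 1 and 3, and 117 with total count.

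The number in the titles is not the mouse, and libraries with the same number correlated at 0.17, -0.03, 0.06, -0.03 and 0.41 after tissue means were removed. The replicate block on that number gave 116 and 90 calls and the paired mice as a random effect 115 and 99, with a consensus correlation of 0.38. The libraries of mouse 2 correlated at 0.07 and those of mouse 8 at 0.41. Brown fat library 5, of mouse 8, also correlated at 0.41 with muscle library 5, of mouse 9.

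With total count these named miRNAs reversed: mmu-miR-143-3p (2.04), mmu-miR-30a-5p (1.68), mmu-miR-21a-5p (2.13), mmu-miR-22-3p (1.18), mmu-miR-26a-5p (1.56), mmu-miR-27b-3p (1.85), mmu-miR-27a-3p (2.14), mmu-miR-146b-5p (1.56), mmu-miR-199a-3p (1.24), mmu-miR-199b-3p (1.24), mmu-miR-122-5p (0.03), mmu-miR-7a-5p (1.73), mmu-miR-7b-5p (1.63), mmu-miR-615-3p (0.57), mmu-miR-30d-5p (2.12), mmu-miR-200a-3p (1.85), mmu-miR-200b-3p (1.6), mmu-miR-200c-3p (1.76), mmu-miR-127-3p (1.19), mmu-miR-379-5p (1.01), mmu-miR-411-5p (0.97) and mmu-let-7i-5p (1.5). By construction this scale adds about 2.22 to every value. Uncalled miRNAs near 0 also changed sign. mmu-miR-21a-5p was 0.11, mmu-miR-30c-5p 0.00 and mmu-let-7f-5p -0.13 without brown fat libraries 1 and 3. mmu-miR-27a-3p was 0.07 without a filter and 0.01 with all 20 inputs, and mmu-miR-30d-5p was 0.05 without a filter. Without 1 library the ranges were -0.41 to 0.08 for mmu-miR-21a-5p, -0.02 to 0.21 for mmu-miR-125b-5p, -0.19 to 0.05 for mmu-miR-27a-3p, -0.05 to 0.50 for mmu-miR-29c-3p, -0.19 to 0.06 for mmu-miR-30d-5p and -0.06 to 0.43 for mmu-let-7f-5p. The cause was not tested.

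Leaving out 1 library or brown fat libraries 1 and 3 for the ratios to miR-1a-3p was chosen after seeing the data. Without 1 library the log2 difference ran from 1.25 to 1.87 for miR-206-3p, 4.66 to 5.36 for miR-208b-3p, 3.88 to 4.4 for miR-499-5p, 0.64 to 1.28 for miR-133a-3p and 0.52 to 1.19 for miR-133b-3p. Depth limits the lower side most for miR-196a-5p, with 1 count in brown fat.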

Other observations

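Several abundant miRNAs outside the lists also differed. Apart from miR-22-3p, which is among the 8 most abundant entries of muscle, they are named here after their values were seen. miR-148a-3p, a miRNA that promotes adipocyte differentiation, averaged 11900 ± 1301 CPM in brown fat and 2916 ± 606 CPM in muscle (SD, n = 5 each; 2.03, SE 0.18, adjusted p = 7.78e-07, edgeR), and its 5p arm was higher as well (1.80, SE 0.25). miR-22-3p, known from heart and muscle growth, averaged 11100 ± 3406 CPM and 23620 ± 3248 CPM (-1.09, SE 0.22, adjusted p = 0.00086), a direction that reversed to 1.18 with total count. miR-125a-5p, from the cluster with miR-99b and let-7e, averaged 1911 CPM and 611.2 CPM (1.65, SE 0.26).

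miR-21a-5p, found in most tissues, was among the 8 most abundant entries of brown fat but varied there, with 10940, 16900, 7546, 27150 and 12850 CPM in libraries 1 to 5, against 13850 to 19510 CPM in muscle (-0.15, SE 0.28, adjusted p = 0.674). Brown fat library 4 was above and libraries 1, 3 and 5 below every muscle library.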
